A study of Mus musculus with 4 samples.

Results

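The G1/S control genes examined here were the cyclins Ccnd1, Ccnd2, Ccnd3, Ccne1 and Ccne2, the kinases Cdk4 and Cdk6, the kinase inhibitor gene Cdkn1b, the pocket protein gene Rb1 and the transcription factor gene E2f1. They were chosen by name for their place in the step from G1 to S phase, and all 10 were found among the 50559 genes of the count table. RNA-seq was compared between E14 mouse embryonic stem cells (ESCs) transfected with siRNA against Cnot1 (siCnot1) and E14 ESCs transfected with non-targeting siRNA (siNT), with 2 biological replicates in each group. Both groups received 150 nM siRNA, were collected at 48 h and were grown in serum replacement with leukemia inhibitory factor. The study's methods describe its ESCs as carrying a tdTomato reporter transgene under the promoter of the MERVL retrotransposon. CNOT1 holds together the subunits of CCR4-NOT, a complex that shortens the poly(A) tails of mRNAs, and the comparison asked how transcript levels changed when it was depleted. Which of the study's siRNAs against Cnot1 was used for these libraries was not given in the sources used here. Libraries were made from poly(A)+ RNA of whole cultures. A change in transcript level per cell and a change in the makeup of the culture therefore cannot be told apart. Any effect of poly(A) tail length on the capture of transcripts was not tested.

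D-type cyclins bind CDK4 and CDK6, and E-type cyclins bind CDK2. These kinases phosphorylate RB1, which otherwise holds E2F factors such as E2F1 inactive on the promoters of S phase genes, and p27, the product of Cdkn1b, inhibits the cyclin-CDK complexes. ESCs are known for a short G1 phase and for cyclin E-CDK2 activity that varies little through the cell cycle.

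CCR4-NOT can be brought to an mRNA by microRNA (miRNA) complexes or by proteins that bind AU-rich stretches of the 3′ UTR, so the members' 3′ UTRs were searched for such letters. The mature miRNAs below, from RefSeq (GRCm38.p6), were chosen because their families are known for cell cycle targets or for high levels in ESCs. Capitals mark the seed, bases 2 to 8. Their levels were not measured here. miR-15a, miR-15b and miR-195a share the seed of miR-16, miR-20a and miR-93 that of miR-17, and miR-295 and miR-291a that of miR-294.
mmu-miR-16-5p: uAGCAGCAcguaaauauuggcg
mmu-miR-17-5p: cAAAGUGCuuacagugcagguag
mmu-miR-294-3p: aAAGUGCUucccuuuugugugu
mmu-miR-34a-5p: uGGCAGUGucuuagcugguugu
mmu-miR-221-3p: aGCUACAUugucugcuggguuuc

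The 7 letters TGCTGCT, which pair with the seed of miR-16, occurred in the 3′ UTR of 5 of the 10 members, all 3 D-type cyclins among them, against 23.7% of 13956 tested genes with a 3′ UTR of any length in GENCODE M21 (GRCm38). The matches are shown because the D-type cyclins, whose transcripts moved in different directions, shared them. Any part of the matches in these changes was not tested. Capitals mark the match, and each window reads 5′ to 3′ on the strand of the gene. Of the 3 matches in Cdk6, the first is given.
Ccnd1, chr7:144930385-144930411, minus strand: catgccaccaTGCTGCTggcccggggg
Ccnd2, chr6:127128532-127128558, minus strand: tttcacggtgTGCTGCTattttagaaa
Ccnd3, chr17:47599284-47599310, plus strand: ttgctttgctTGCTGCTtagcttctgt
Ccne1, chr7:38098014-38098040, minus strand: attttgtaagTGCTGCTatgtctatca
Cdk6, chr5:3524535-3524561, plus strand: ttgcacagggTGCTGCTatctcaaaga

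The AU-rich nonamer TTATTTATT occurred in Ccne2, Cdk6 and E2f1, against 8.1% of the 13956 genes. The windows of Ccne2 and E2f1 are shown, together with the GCACTTT match to the miR-17 seed in Rb1, which rose. The same letters occurred in Ccnd2, which also rose, in Ccnd1, which fell, and in E2f1, which did not pass the test. Those matches are not printed. Capitals again mark the match (GRCm38).
Ccne2, chr4:11204116-11204144, plus strand: tcctagaaatTTATTTATTtaaacttgct
E2f1, chr2:154560033-154560061, minus strand: aatggagcgtTTATTTATTtatcgaggcc
E2f1, chr2:154559899-154559927, minus strand: cccaagcagtTTATTTATTgggaaaggga
Rb1, chr14:73196351-73196377, minus strand: caacccaagtGCACTTTttaatgtttc

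The libraries held 32135824 to 32557440 counts on genes, so that 3 counts, taken as the floor of detection, equalled 0.0895 to 0.0963 CPM, the unit of counts relative to library size that is used below with edgeR's TMM scaling. Enough counts for a test were present for 18144 genes, the 10 members included. Cnot1 itself had 28397 and 30903 counts in siNT and 6188 and 6425 in siCnot1, a fall to 19.8% of the control level (log2 fold change -2.33, SE 0.0587, adjusted p = 2.37e-18 in edgeR's quasi-likelihood test, Benjamini-Hochberg adjusted). The ESC markers Pou5f1, Nanog and Dppa5a, named for the highest CPM of their list, had between 876.9 and 1426.7 CPM in every library. Of 10 ESC markers 7 were lower in siCnot1 (summed CPM of 7841 and 7578 in siNT against 6354 and 6642). Among 2-cell-like markers, genes of the early embryo's first divisions, 5 of 6 were higher, with a summed CPM of 54.2 and 58.0 against 152 and 158. Of 12 tested markers of differentiated lineages 3 were lower and none higher, with a sum of 85.0 and 84.2 against 74.3 and 70.2. The highest by mean CPM were Nes (18.2 in siNT, 19.4 in siCnot1), Eomes (17.9, 19.7) and Otx2 (15.7, 9.45), while T was at 0 in every library. Of 4 tested fibroblast markers 2 were higher (sum of 17.2 and 20.4 against 29.1 and 25.1). The highest by mean CPM were Pdgfrb (8.22 in siNT, 14.1 in siCnot1), Thy1 (8.81, 8.89) and Col1a1 (1.39, 3.69), while Col3a1 was at 0 in every library. These counts compare with 15.0% of all tested genes called higher and 14.7% called lower. The part of these marker changes in the results below was not tested.

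After Cnot1 knockdown 6 members changed at an adjusted p under 0.05. Ccnd2 and Rb1 rose, and Ccnd1, Ccnd3, Ccne2 and Cdk6 fell. The other 4, Ccne1, Cdk4, Cdkn1b and E2f1, did not pass the test. The 2 of 10 that rose compare with 15.0% of all tested genes called higher, the 4 that fell with 14.7% called lower, and the 6 changed with 29.7% called in either direction. The groups did not overlap for 9 members, 2 above and 7 below, against 63.9% of tested genes, of which 32.7% lay above and 31.2% below. The median log2 fold change was -0.15 over the members and 0.0084 over all tested genes. When counts were scaled by library totals instead of TMM, the median of all genes shifted to 0.115, the share of higher genes among the calls rose from 50.5% to 71.8%, and the members called were Ccnd2 and Rb1, higher, and Ccnd3 and Ccne2, lower.

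**Figure D1:**
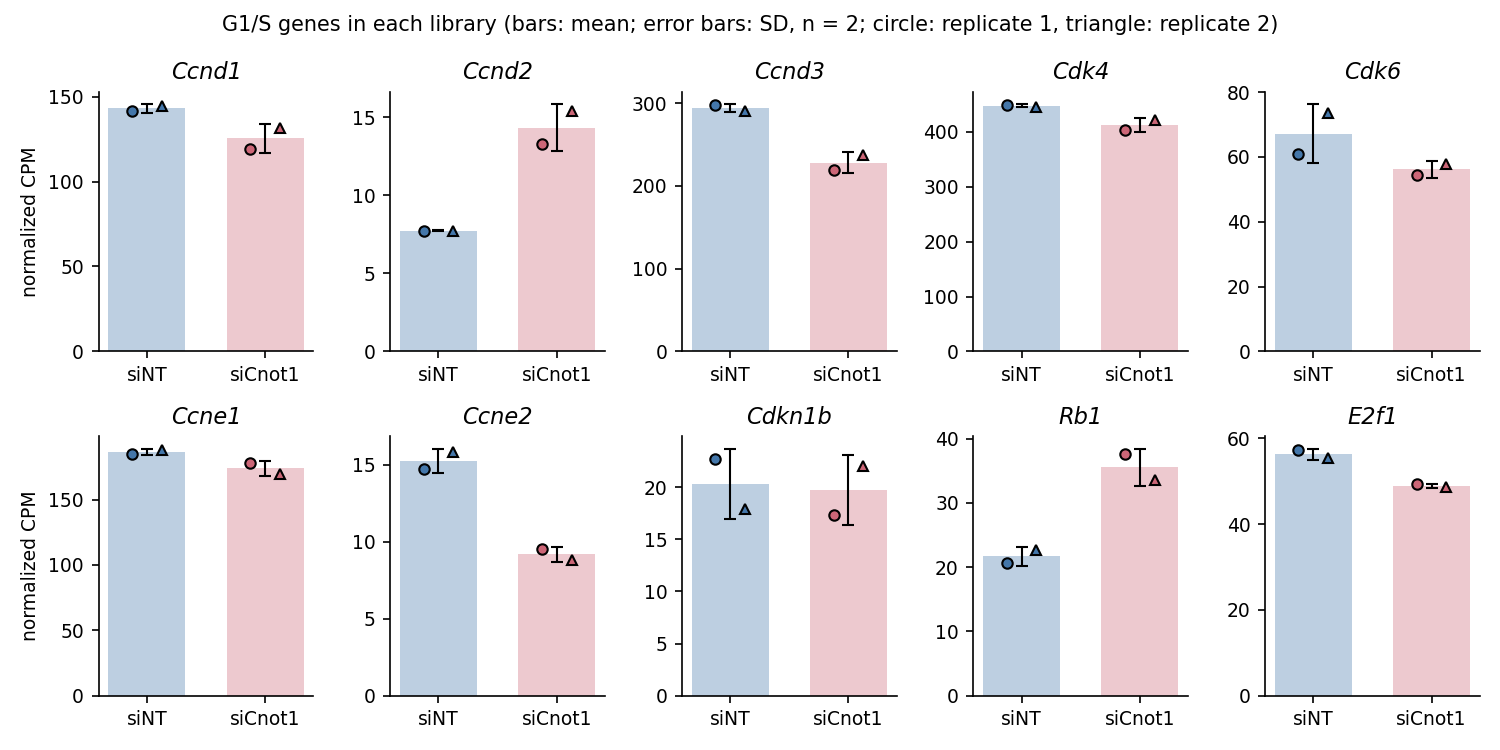
Level of each of the 10 genes in each of the 4 libraries, in CPM on a linear axis, with 1 panel per gene. Points are libraries (siNT and siCnot1, n = 2 each), bars are means and error bars are SDs. Ccnd2 and Rb1 sit higher in both siCnot1 libraries, 7 genes sit lower, and the points of Cdkn1b interleave.

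The D-type cyclin transcripts moved in different directions. Ccnd2 (chr6:127102125-127131913, minus strand, in the deposited annotation, whose positions are taken to be GRCm39) encodes cyclin D2 and was the lowest of the 3. It had 7.71 and 7.75 CPM in the siNT replicates and 13.3 and 15.4 CPM in the siCnot1 replicates. Both siCnot1 libraries lay above both controls, with a mean of 14.4 ± 1.49 against 7.73 ± 0.0269 CPM (SD, n = 2 each). The log2 fold change was 0.89 (SE 0.141, 95% interval 0.60 to 1.19, adjusted p = 3.8e-05 in edgeR's quasi-likelihood test, Benjamini-Hochberg adjusted), an increase of 85.7%. Only 8.99% of tested genes had a higher log2 fold change. Without siNT replicate 1 the value was 0.89 with an adjusted p of 0.0507.

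Ccnd3 (chr17:47815976-47910614, plus strand) encodes cyclin D3, the D-type cyclin with the highest level. It had 297 and 291 CPM in siNT and 219 and 237 CPM in siCnot1. The groups were apart, at 294 ± 4.46 and 228 ± 12.9 CPM (SD, n = 2 each). Ccnd3 fell by 0.37 on the log2 scale (SE 0.0579, adjusted p = 3.63e-05 in the edgeR test), a change of -22.5%. The adjusted p was 0.0546 without siNT replicate 1, at a log2 fold change of -0.35.

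Ccnd1 (chr7:144483668-144493568, minus strand) encodes cyclin D1, which links growth factor signals to CDK4 and CDK6. The siNT replicates had 141 and 145 CPM, and the siCnot1 replicates 119 and 131 CPM. The lower siNT library stood above the higher siCnot1 library, and the means were 143 ± 2.41 and 125 ± 8.68 CPM (SD, n = 2 each). The log2 fold change was -0.19 (SE 0.0634, adjusted p = 0.0254 in the edgeR test), a change of -12.4%. This call was lost with library totals (-0.08, adjusted p = 0.330), without a filter on low counts (adjusted p = 0.125), and without siNT replicate 1 (-0.21, 0.169), siNT replicate 2 (-0.17, 0.220) or siCnot1 replicate 1 (-0.12, 0.341). Ccnd1 shares 21.7% of its exon bases with LTO1 and Ccnd3 14.3% with Bysl, each on the opposite strand. Neither neighbour passed the test, with log2 fold changes of 0.03 (adjusted p = 0.891) for LTO1 and 0.10 (adjusted p = 0.251) for Bysl, genes chosen for their position.

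The change of Ccnd2 differed from those of both other D-type cyclins. Its log2 fold change exceeded that of Ccnd1 by 1.08 (95% interval 0.78 to 1.39) and that of Ccnd3 by 1.26 (0.96 to 1.56). The difference between Ccnd3 and Ccnd1 was -0.18 (SE 0.0858, -0.35 to -0.01). This last interval came from a normal quantile, which is narrower than the t quantile used for single genes. Ccnd3 and Ccnd1 are therefore not taken to differ. Per kilobase of exon, Ccnd3 made up 75.5% and 74.7% of D-type cyclin transcripts in siNT and 72.4% and 72.0% in siCnot1. The share of Ccnd1 was 23.9% and 24.7% in siNT against 26.3% and 26.6% in siCnot1. Ccnd2 supplied 0.596% and 0.605% in siNT, with 1.34% and 1.42% in siCnot1, and stayed the least abundant by far. Summed over the 3 genes, D-type cyclin counts came to 13898 and 13913 (siNT) and to 11781 and 12861 (siCnot1). The sum fell by 0.28 on the log2 scale (SE 0.0567, adjusted p = 0.000671 in the edgeR test), a change of -17.4%. It missed the threshold without siNT replicate 1 (-0.27, adjusted p = 0.0881) and without siNT replicate 2 (-0.28, adjusted p = 0.0811).

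The E-type cyclins, which activate CDK2 at the entry to S phase, differed in size of change. Ccne2 (chr4:11190489-11204779, plus strand) had 14.7 and 15.8 CPM in siNT and 9.51 and 8.84 CPM in siCnot1. Both siCnot1 libraries lay well below both controls, at 9.18 ± 0.479 against 15.3 ± 0.779 CPM (SD, n = 2 each). Ccne2 fell by 0.73 on the log2 scale (SE 0.132, adjusted p = 0.000175 in edgeR's quasi-likelihood test, Benjamini-Hochberg adjusted), a change of -39.9%, and 4.66% of tested genes had a lower log2 fold change. Without siNT replicate 2 the log2 fold change was -0.68 with an adjusted p of 0.0559. Ccne2 shares 53.2% of its exon bases with Ints8 on the opposite strand, a gene for a subunit of the Integrator complex that was picked for this overlap after its values were seen. Ints8 had 3237 and 3053 counts in siNT and 2517 and 2595 in siCnot1 (log2 fold change -0.40, SE 0.067, adjusted p = 7.73e-05). The strand setting of the authors' counting is not given in the sources used here, and the part of Ints8 reads in the Ccne2 counts was not tested.

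Ccne1 (chr7:37797409-37806915, minus strand) was the main E-type cyclin transcript. The siNT replicates had 184.6 and 188 CPM, and the siCnot1 replicates 178 and 169.95 CPM. The 2 groups did not overlap, but the log2 fold change of -0.10 (95% interval -0.22 to 0.02, adjusted p = 0.210 in the edgeR test) did not pass, and library totals turned it to 0.0069. Its log2 fold change was above that of Ccne2 by 0.63 (95% interval 0.35 to 0.92). Per kilobase, the Ccne1 to Ccne2 ratio came to 20.9 and 19.8 (siNT) and to 31.1 and 32.02 (siCnot1). The length used for Ccne2 includes the exon bases shared with Ints8, and their effect on this ratio was not tested. Summed E-type cyclin counts (6206 and 6403 against 6285 and 5988) had a log2 fold change of -0.14 (95% interval -0.26 to -0.02, adjusted p = 0.0719 in the edgeR test).

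Of the kinases that pair with D-type cyclins, Cdk4 was far more abundant than Cdk6. Cdk4 (chr10:126899404-126903157, plus strand) had 449 and 446 CPM in siNT and 404 and 422 CPM in siCnot1. The log2 fold change was -0.12 (SE 0.054, adjusted p = 0.114 in the edgeR test), which did not pass although the groups were apart. Cdk6 (chr5:3391004-3581008, plus strand) had 60.8 and 73.6 CPM in siNT and 54.4 and 58.0 CPM in siCnot1. The siNT replicates differed more from each other than the siCnot1 replicates did, with 67.2 ± 9.03 against 56.2 ± 2.53 CPM (SD, n = 2 each). Cdk6 fell by 0.26 on the log2 scale (SE 0.0859, adjusted p = 0.0251 in the edgeR test). The call was lost on leaving out siNT replicate 1 (-0.39, adjusted p = 0.0546), siNT replicate 2 (-0.11, 0.385), siCnot1 replicate 1 (-0.21, 0.208) or siCnot1 replicate 2 (-0.31, 0.0604), and also with library totals (-0.15, 0.192) and without the filter on low counts (0.198). The kinases' log2 fold changes differed by 0.14 (95% interval -0.06 to 0.34). Per kilobase, Cdk6 made up 1.56% and 1.90% of Cdk4 and Cdk6 transcripts in siNT and 1.56% and 1.59% in siCnot1.

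Cdkn1b (chr6:134897364-134902488, plus strand) encodes p27 and was the single member whose groups overlapped. It had 22.7 and 17.9 CPM in siNT and 17.4 and 22.1 CPM in siCnot1. The replicates of each group were farther apart than the group means, which were 20.3 ± 3.37 and 19.7 ± 3.33 CPM (SD, n = 2 each). The log2 fold change was -0.04 (95% interval -0.31 to 0.22, adjusted p = 0.841 in the edgeR test), and its sign was positive with library totals (0.06) and without siNT replicate 1 (0.14) or siCnot1 replicate 1 (0.12). Per kilobase, summed D-type cyclin transcripts exceeded Cdkn1b by 16.6 and 20.8 times in siNT and by 16.7 and 14.3 times in siCnot1. The corresponding ratios for E-type cyclins came to 10.5 and 13.6 (siNT) and to 13.0 and 9.77 (siCnot1). Both ratios overlapped between the groups.

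Rb1 (chr14:73430298-73563446, minus strand), the pocket protein gene that restrains E2F factors, rose. It had 20.7 and 22.7 CPM in siNT and 37.6 and 33.5 CPM in siCnot1. The lowest siCnot1 library stood above the highest control, and the means were 35.6 ± 2.91 and 21.7 ± 1.45 CPM (SD, n = 2 each). The log2 fold change was 0.71 (SE 0.102, 95% interval 0.50 to 0.92, adjusted p = 1.20e-05 in edgeR's quasi-likelihood test, Benjamini-Hochberg adjusted), an increase of 63.8%. Rb1 passed the threshold with each library left out in turn, at log2 fold changes of 0.63 to 0.79 and adjusted p up to 0.0473. Its exons overlap no other gene of the deposited table, which also holds for Ccnd2, Ccne1 and Cdkn1b.

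E2f1 (chr2:154401320-154411812, minus strand) had 57.2 and 55.4 CPM in siNT and 49.2 and 48.6 CPM in siCnot1. Replicates lay close together in both groups, which did not overlap. The log2 fold change of -0.20 (SE 0.0798, 95% interval -0.37 to -0.04, adjusted p = 0.0595) did not pass in the edgeR test, while limma-voom gave an adjusted p of 0.0490 at the same value. E2f1 transcripts exceeded those of Rb1, per kilobase, by 5.89 and 5.19 times in siNT and by 2.79 and 3.09 times in siCnot1.

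**Figure D2:**
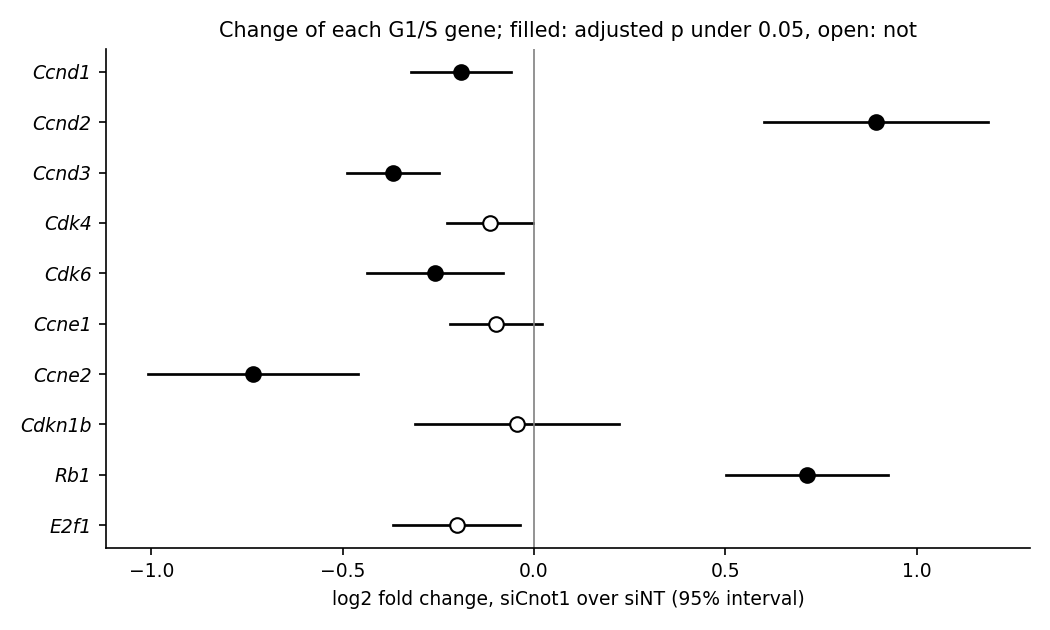
Log2 fold change (siCnot1 minus siNT) of each of the 10 genes with its 95% interval from the edgeR fit (n = 2 per group), where filled points have an adjusted p under 0.05. Ccnd2 (0.89) and Rb1 (0.71) lie to the right of 0, Ccne2 (-0.73) lies farthest to the left, and the intervals of Ccne1 and Cdkn1b include 0.

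Levels were compared between the genes only per kilobase of exon. In siNT the order was Cdk4 (315 ± 1.83 CPM per kb, SD, n = 2), Ccnd3 (117 ± 1.78), Ccne1 (95.3 ± 1.33), Ccnd1 (37.96 ± 0.639), E2f1 (18.2 ± 0.418), Cdkn1b (8.45 ± 1.399), Cdk6 (5.55 ± 0.747), Ccne2 (4.69 ± 0.239), Rb1 (3.29 ± 0.219) and Ccnd2 (0.937 ± 0.00326). The first 6 places and the last were the same in siCnot1, where Rb1 (5.39 ± 0.441) stood above Cdk6 (4.64 ± 0.209) and Ccne2 (2.82 ± 0.147). Ccnd3 (90.9 ± 5.14) and Ccne1 (88.9 ± 2.89), neighbours in this order, lay within their spread of each other in siCnot1 but not in siNT. Cdk6 and Ccne2 in siNT were likewise separated by less than the sum of their SDs. The effect of the exon bases shared with Ints8 on the place of Ccne2 was not tested.

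**Figure D3:**
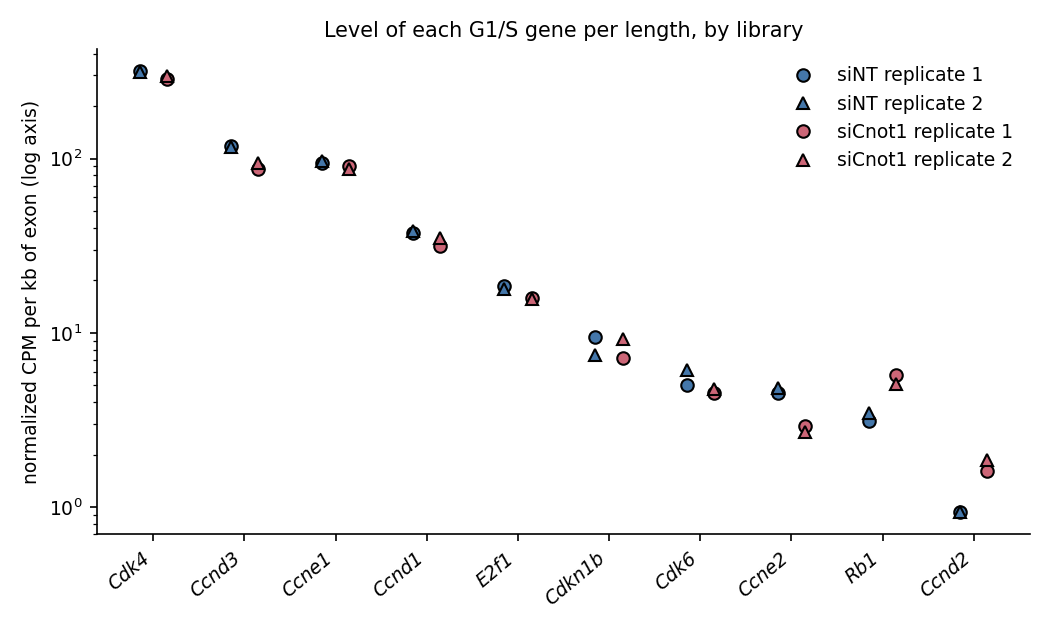
Level of each gene in CPM per kilobase of exon on a log axis, for the siNT and siCnot1 libraries (points are libraries, n = 2 per group). Cdk4 is at the top and Ccnd2 at the bottom in both groups, and Rb1 passes Cdk6 and Ccne2 in siCnot1.

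The 3′ UTRs differed widely in length, from 531 bases in Ccne1 and 899 in Cdk4 to 5173 in Ccnd2 and 10217 in Cdk6, against a median of 1133 over all 13956 genes. At least 1 AU-rich pentamer, ATTTA, was present in 9 of the 10, with 15 in Cdk6, 11 in Rb1, 10 in Cdkn1b and 7 in Ccne2, against 68.9% of all genes. Of these, Rb1 rose, Cdk6 and Ccne2 fell, and the groups of Cdkn1b overlapped. Ccnd2, which rose most, held 2. Any part of these motifs in the changes was not tested. The miR-17 match GCACTTT was found in Ccnd1, Ccnd2, Rb1 and E2f1 (14% of all genes), and the miR-294 match AGCACTT in Ccnd1, Ccnd2, Cdk4 and Cdk6 (17%). In Ccnd1 and Ccnd2 these matches overlap by 6 letters. The miR-34a match CACTGCC occurred in Ccne2 and Cdk6 (16.9%), and the miR-221 match ATGTAGC in Ccnd2 and Cdkn1b (10.4%). Searches covered the transcribed strand of the longest annotated 3′ UTR only, and long 3′ UTRs hold more matches to any letters. Which 3′ ends these ESCs use was not measured.

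**Figure D4:**
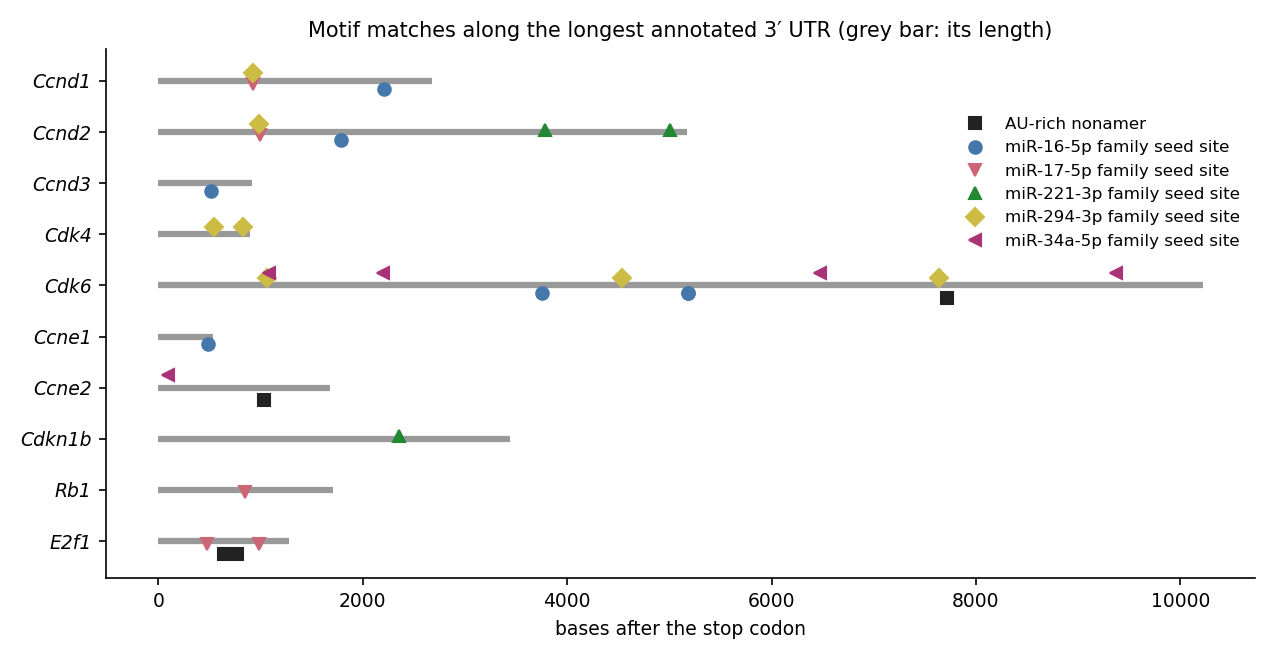
Matches to the AU-rich nonamer and to 5 miRNA seeds along the longest annotated 3′ UTR of each of the 10 genes (grey bar), in bases after the stop codon. Cdk6, with the longest 3′ UTR (10217 bases), carries most matches, and the TGCTGCT match is present in Ccnd1, Ccnd2, Ccnd3, Ccne1 and Cdk6.

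Promoter windows from RefSeq (GRCm38.p6), 250 bases before to 50 after the start, were matched for 6 of the 10 genes (all but Ccnd1, Ccnd2, Ccne2 and Rb1). None of the 6 held any of the E2F letters TTTCCCGC, TTTGGCGC, TTTGCCGC or TTTCGCGC on either strand, which 4.39% of 12821 tested genes' windows did. Among E2F target genes of S phase entry 9 of 20 windows held a match. Only exact matches within these windows were sought, so that E2F sites with other letters or farther away were not covered.

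The other genes of the pathway were taken from lists by role, described by their counts beside the background of 15.0% higher and 14.7% lower. Of 9 partner kinases and later cyclins, 3 were lower and none higher (median log2 fold change -0.12). Mnat1, an assembly factor of the CDK-activating kinase, had -0.46 (adjusted p = 2.32e-05 in the edgeR test), Ccnb2 had -0.21 (0.00853) and Cdk1 had -0.15 (0.0476). Cdk2 (-0.09, adjusted p = 0.294) and Ccna2 (-0.12, 0.118), the kinase and cyclin of S phase, did not pass. With library totals Mnat1 alone was called, and with 1 library left out 1 or 2 of the 9 were. The Cdk1 call was lost in 9 of 12 alternatives, among them upper-quartile scaling (adjusted p = 0.0856), the filter of 1 CPM (0.0515), no filter (0.0834) and the replicate block (0.0866). Ccnb2 lost its call with library totals (-0.10, adjusted p = 0.182) and on leaving out siNT replicate 1 (0.0916), siNT replicate 2 (0.0853) or siCnot1 replicate 1 (0.0991).

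Of the 6 other CDK inhibitor genes, 3 were higher and none lower (median log2 fold change 0.31). Cdkn1a, which encodes p21, had 72.1 and 62.6 CPM in siNT and 79.4 and 83.1 CPM in siCnot1 (0.27, adjusted p = 0.00857 in the edgeR test). Cdkn2a, which encodes p16 and p19ARF, had 0.39 (0.0177). Cdkn1c, which encodes p57, had only 15 and 40 counts in siNT and 94 and 65 in siCnot1 (1.43, SE 0.400, adjusted p = 0.00873), and its log2 fold change was 0.89 without siNT replicate 1 and 2.29 without siNT replicate 2. That of Cdkn1a was 0.17 without siNT replicate 2. Each of the 3 calls was lost with either siNT replicate left out and without a filter on low counts. With either siCnot1 replicate left out Cdkn2a lost its call, while Cdkn1a and Cdkn1c each kept theirs in a different fit. Cdkn2a also missed the threshold in DESeq2 (adjusted p = 0.0502).

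Among 11 other pocket protein, E2F and DP genes, 1 was higher and 3 lower (median -0.048). Rbl2, which encodes the pocket protein p130, had 15.7 and 14.5 CPM in siNT and 28.1 and 25.8 CPM in siCnot1. Its groups were well apart, at a log2 fold change of 0.84 (SE 0.109, adjusted p = 3.65e-06 in the edgeR test). The difference between Rb1 and Rbl2 was -0.12 (95% interval -0.42 to 0.17), which includes 0. Rbl1, which encodes p107, had -0.02 (adjusted p = 0.897), and Rb1 exceeded it by 0.73 (95% interval 0.47 to 1.00). E2f5 (-0.34, adjusted p = 0.00605), E2f3 (-0.24, 0.0257) and E2f4 (-0.21, 0.0115) fell, and none of these 3 calls held with library totals (-0.23, -0.13 and -0.11 in that order), without a filter on low counts or with either siNT replicate left out. Without siCnot1 replicate 1 the calls of E2f3 and E2f4 were lost, and without siCnot1 replicate 2 those of E2f3 and E2f5.

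Of 14 genes for cyclin and p27 turnover and for CDK phosphorylation, 2 were higher and 4 lower (median -0.017). Skp1, a core subunit of SCF ubiquitin ligases, fell by 0.52 on the log2 scale (adjusted p = 7.43e-07 in the edgeR test). Fbxw7, which brings cyclin E to SCF, rose by 0.49 (adjusted p = 1.10e-05). Skp2, which brings p27 to SCF, had -0.22 (0.0139), Cdc25a, a phosphatase that activates CDK2, -0.19 (0.0231), and Pkmyt1, an inhibitory kinase of CDK1, 0.30 (0.0414). Skp1 and Fbxw7 passed under every alternative run. The calls of Skp2 and Cdc25a were lost with library totals (-0.11, adjusted p = 0.204 and -0.08, 0.347), without a filter on low counts and with any 1 library left out. Pkmyt1 was lost in 6 of 12 alternatives, among them DESeq2 (adjusted p = 0.0859) and the replicate block (0.0651), and had 0.15 without siCnot1 replicate 1. With 1 library left out, the log2 fold change was -0.60 to -0.43 for Skp1 and 0.41 to 0.59 for Fbxw7.

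Among 23 E2F target genes of S phase entry, 11 were lower and 2 higher (median log2 fold change -0.16). Tk1, thymidine kinase, had -0.43 (adjusted p = 6.16e-05 in the edgeR test) and Ung, uracil-DNA glycosylase, -0.42 (1.47e-05). Pola1, the catalytic subunit of DNA polymerase alpha, had 0.35 (0.000288), and Mcm3, a subunit of the replicative helicase, 0.27 (0.000531). The 11 lower genes became 2 with library totals, 2 without siNT replicate 1, 2 without siNT replicate 2, 3 without siCnot1 replicate 1, 7 without a filter on low counts, and 9 without siCnot1 replicate 2, with the replicate block or with upper-quartile scaling. The 2 higher calls, Pola1 (adjusted p = 0.0658) and Mcm3 (0.0692), were lost without siNT replicate 2.

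Of 6 transcription factor genes listed here as inputs to D-type cyclin genes or Cdkn1b, 1 was higher and 2 were lower. Mycn had 148 and 162.5 CPM in siNT and 99.2 and 110 CPM in siCnot1. This was a clear separation of the groups, with a log2 fold change of -0.57 (SE 0.0671, adjusted p = 9.08e-07 in the edgeR test). Myc had 0.06 (adjusted p = 0.730), Foxo4 -0.25 (0.0304) and Dmtf1 0.20 (0.0272). The Mycn call held under every alternative run, while Foxo4 and Dmtf1 were lost without siNT replicate 1, siNT replicate 2 or siCnot1 replicate 1 and without a filter on low counts (adjusted p = 0.167 and 0.137). Foxo4 was also lost with library totals (-0.15, adjusted p = 0.211) and with the replicate block (0.051). Without siCnot1 replicate 1 the log2 fold changes were -0.16 for Foxo4 and 0.13 for Dmtf1.

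**Figure D5:**
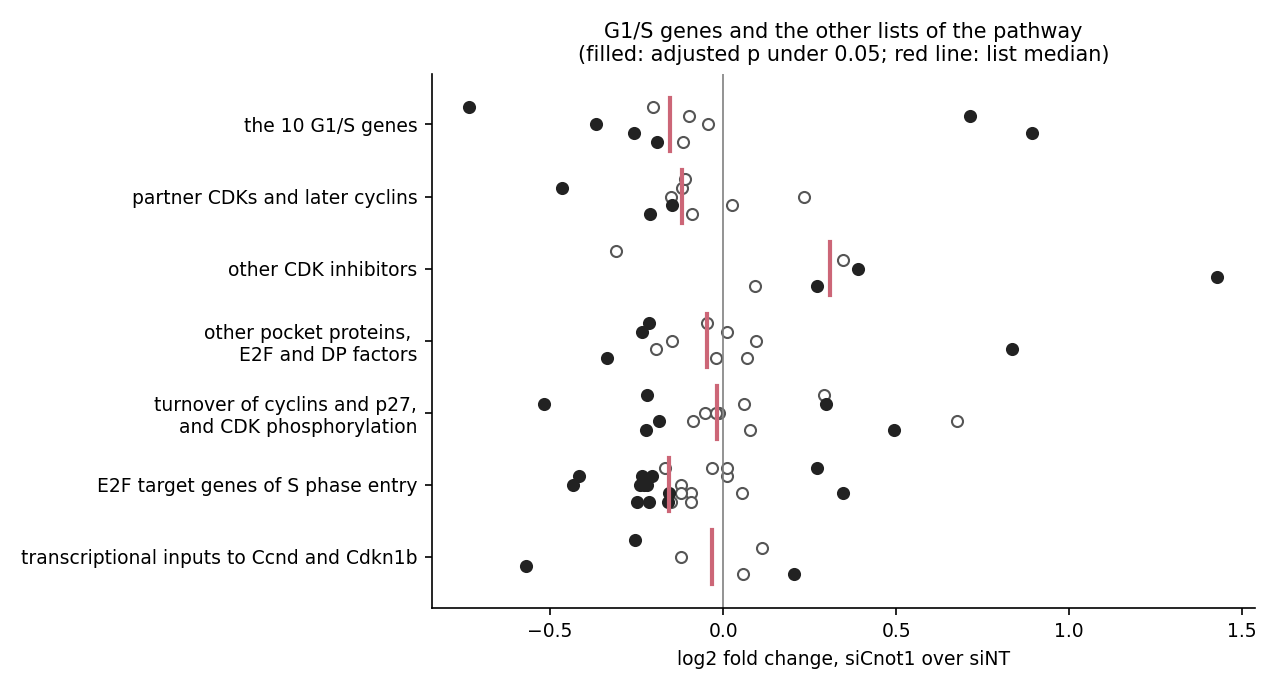
Log2 fold change (siCnot1 minus siNT) of every tested gene of the 10 G1/S genes and of the other pathway lists, 1 point per gene, filled where the adjusted p in edgeR's test is under 0.05. The 23 E2F target genes lie mostly below 0 (median -0.16), and the 6 other CDK inhibitor genes mostly above it (median 0.31).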

How the data were processed

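RNA-seq counts were analysed for 4 libraries (2 siNT, 2 siCnot1), grouped by sample title. The authors deposited raw whole-number read counts per gene, not normalized, with exon length. The submitters' processing notes name fastp 0.19.4, HISAT2 2.2.1, DESeq2 1.40.2 and mm10. The counting program and its strand setting are not given in the sources used here. The deposited positions of all 10 genes differ from GRCm38, so sequences of GENCODE M21 and RefSeq were joined by gene name only.

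Here, counts were filtered with filterByExpr (minimum count 10), scaled by TMM and compared with edgeR 4.0.16 in R 4.3.3 (quasi-likelihood test, 2-sided, Benjamini-Hochberg adjustment over 18144 genes, called under 0.05). The SE was obtained from the log2 fold change and F (their quotient after taking the root of F). Intervals of single genes use the t quantile of the fit. Intervals of differences between genes use the narrower normal quantile and treat the genes' errors as independent. Summed cyclin counts were added as genes of the same fit. The smallest exact permutation p for 2 against 2 is 0.333, so no such test was used. Floors cover counting error only.

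Named were the 10 genes, Cnot1, up to 4 called genes with the largest changes in each pathway list, whatever their values Cdk2, Ccna2, Cdkn1a, Rbl1, Rbl2, E2f4, Skp2, Cdc25a, Myc and Mycn (5 of which the first rule also names), and up to 3 markers a list by CPM. Ints8, LTO1 and Bysl were added for their overlap, and T and Col3a1 because they were at 0. Members and lists were chosen with earlier results of these data known, and the sequence motifs after values were seen. As alternatives, scaling used upper quartiles, library totals or the size factors of DESeq2, and the other alternatives were 2 other filters, DESeq2 1.42.0, limma-voom (limma 3.58.1), a replicate block and leaving out each library.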

Additional observations from a re-analysis of the deposited data

How the results depend on the processing

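Of 12 alternatives, library totals, no filter on low counts and leaving out a library changed most calls. Depth was similar in all libraries, and low counts limit genes such as Cdkn1c (15 and 40 counts in siNT). Fits without 1 library assume that the lone library of a group varies like the other group, and fewer samples enter them. Other causes were not tested, beyond the shift of the median by library totals. Rb1 kept its direction and call throughout. Ccnd2, Ccnd3 and Ccne2 did so except with 1 siNT library left out.

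With library totals, 1567 of all genes were lower (3989 higher), as were 2 members, 1 partner kinase or later cyclin, 0 pocket protein or E2F genes (2 higher), 1 turnover gene, 2 E2F targets and 1 transcriptional input (2 higher). Log2 fold changes became -0.084 for Ccnd1, -0.15 for Cdk6, 0.0069 for Ccne1, 0.062 for Cdkn1b, 0.016 for Cdk2 and 0.086 for Rbl1. Without the filter, 1303 genes were higher and 1450 lower, with 2 members lower, 0 other inhibitors higher, 0 pocket protein or E2F genes lower, 1 turnover gene higher and 1 lower, 7 E2F targets lower, and 0 inputs higher and 1 lower. Ccnd1 then had -0.20 and Cdk6 -0.27, neither called. DESeq2 called 1 turnover gene higher. Limma-voom called E2f1 at -0.20.

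The replicate number pairs the samples only by name: across genes, the deviations from group means of libraries with the same number correlated at 0.0109. The replicate block left 2524 higher and 2431 lower genes, 1 turnover gene higher, 1 input, 2 partners and 9 E2F targets lower (Cdk1, Foxo4 and Pkmyt1 lost their calls), and changed no member's call.

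With 1 library left out, 625 to 1989 genes were higher and 705 to 1960 lower, and of the members 1 to 2 were higher and 1 to 3 lower. The ranges were 1 to 2 lower for partners, 0 to 1 higher for other inhibitors, 0 to 1 lower for pocket protein and E2F genes, 1 to 2 higher and 1 to 2 lower for turnover genes, 0 to 2 higher and 2 to 9 lower for E2F targets, and 0 to 1 higher and 1 to 2 lower for inputs. Log2 fold changes ranged from -0.26 to -0.12 for Ccnd1, 0.78 to 0.99 for Ccnd2, -0.43 to -0.31 for Ccnd3, -0.79 to -0.68 for Ccne2, -0.39 to -0.11 for Cdk6, -0.34 to -0.21 for summed D-type cyclins and -0.23 to 0.14 for Cdkn1b (0.14 without siNT replicate 1 and 0.12 without siCnot1 replicate 1). Rbl1 ranged from -0.080 to 0.041, with 0.041 without siNT replicate 2 and 0.017 without siCnot1 replicate 2.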
